A study of Mus musculus with 6 samples.

Results

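The genes for the type 2 cytokines IL-4 and IL-13 and for receptor chains of the common gamma chain family were examined in mouse bone marrow-derived eosinophils treated with extracellular vesicles (EVs) from activated TH2 cells. The 9 genes were taken from the gene table by symbol, as members of this family: the ligands Il4 and Il13, the receptor chains Il4ra and Il13ra1, the common gamma chain Il2rg, and its partner chains Il2ra, Il2rb, Il7r and Il21r. All 9 were among the 16254 genes of the table, and 8 of them were among the 13498 genes that passed the low-count filter and were tested, the exception being Il2rb.

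The common gamma chain has no ligand of its own and completes the receptors for IL-2, IL-4, IL-7, IL-9, IL-15 and IL-21. IL-4 signals through the IL-4 receptor alpha chain paired either with the gamma chain (the type I receptor) or with the IL-13 receptor alpha 1 chain (the type II receptor), which is also the receptor that signals for IL-13. Both receptors act through Janus kinases and the transcription factor STAT6. Eosinophils are known to make IL-4, and IL-7 receptor alpha serves in the receptors for IL-7 and, with Crlf2, for TSLP.

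The cells came from the marrow of C57BL/6 mice aged 6 to 12 weeks, grown with FLT3 ligand and stem cell factor and then IL-5, and were used on day 12 of culture. Of the 6 cultures, 3 were EV treated, at a stated dose of 5e9 EVs/ml, and 3 were Media treated with cell-free medium taken through the same purification, called sham-treated here, with RNA collected after 24 h in both. The EVs were purified by size exclusion chromatography from TH2 cells restimulated for 6 h through the T cell receptor in the presence of IL-2, after earlier culture with IL-4. The labels call the cultures biological replicates and do not say whether they came from separate animals, so the p-values measure the spread between these cultures. No sorting of the cultured cells is described for these libraries, and RNA carried by the EVs themselves was not analysed here.

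The libraries held 23697620 to 37874426 estimated counts in all, and normalized counts are these counts scaled for library size and composition (TMM). All 11 eosinophil markers examined were tested, and their summed normalized count was 897301 to 1133606 in the sham-treated and 1265158 to 1424005 in the EV-treated cultures, led by the granule protein genes Prg2 and Epx. Sham replicate 1 stood apart: it was the sham library nearest to the EV mean for 1806 (56.4%) of the 3204 genes that differed between treatments, among them Il4, Il13 and Il7r. Values without that library are given beside Il4, Il13 and Il7r and beside the marker genes that moved with them.

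The stretches upstream of Il4, Il13 and Il2rg, genes that were higher after EV treatment, are shown because the receptors named above act through STAT proteins, whose binding sites are commonly written TTCNNNGAA or, for STAT6, TTCNNNNGAA. Each is the 250 bases before a RefSeq start site on build GRCm38.p6, read 5′ to 3′ on the gene's own strand, the minus strand for all 3 genes. Capitals mark a match to either motif.
Il4, upstream start, chr11:53618666-53618915: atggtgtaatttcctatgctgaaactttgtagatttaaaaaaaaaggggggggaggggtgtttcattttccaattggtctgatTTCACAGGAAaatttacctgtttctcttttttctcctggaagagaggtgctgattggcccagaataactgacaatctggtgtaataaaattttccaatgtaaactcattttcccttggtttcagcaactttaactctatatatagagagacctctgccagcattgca
Il13, chr11:53634703-53634952: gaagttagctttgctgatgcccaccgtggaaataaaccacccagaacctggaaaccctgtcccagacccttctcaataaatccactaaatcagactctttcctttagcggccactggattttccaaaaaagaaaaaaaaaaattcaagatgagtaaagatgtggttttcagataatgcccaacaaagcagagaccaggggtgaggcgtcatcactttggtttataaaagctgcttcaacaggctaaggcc
Il2rg, chrX:101268256-101268505: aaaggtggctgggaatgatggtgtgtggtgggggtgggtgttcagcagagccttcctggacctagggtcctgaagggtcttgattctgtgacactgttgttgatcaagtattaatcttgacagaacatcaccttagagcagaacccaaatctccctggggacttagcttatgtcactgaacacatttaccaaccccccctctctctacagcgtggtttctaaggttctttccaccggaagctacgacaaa

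The Il4 stretch held 1 match to TTCNNNNGAA, which began 167 bases before the start, and the Il13 and Il2rg stretches held no match to either motif. For Il7r, which was lower after EV treatment, only the 30 bases around its match to TTCNNNGAA are shown, because this window lies inside the annotated gene body. The match began 142 bases before the RefSeq start, on the minus strand.
Il7r, chr15:9529999-9530028: gttcaggagcTTCAGGGAAtaccaagatgc

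Windows were given for 8 of the 9 genes (9 windows, as Il4 has a second start), and none of the other 7 windows of these genes held either motif. Each motif reads the same on both strands, and no window of these genes held both. Across all 32851 mouse windows of this length, 7.02% held TTCNNNGAA and 5.85% held TTCNNNNGAA, and a match describes only the letters of the window.

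EV-treated cultures had more RNA for IL-4 and for the chains of the type I IL-4 receptor, and less for the IL-7 receptor chain. Il4 rose 1.91-fold, Il4ra 2.33-fold and Il2rg 1.51-fold, and Il7r fell to a level 4.44-fold lower. Il13 had 4 counts over all sham libraries and 112 over the EV libraries, and its call was lost in 5 of the 6 fits with 1 library left out. With an adjusted p under 0.01 as the threshold (edgeR quasi-likelihood test, adjusted over all tested genes), 4 of the 8 tested genes were higher and Il7r alone was lower, whereas 12.1% of all tested genes were higher and 11.6% were lower. The 4 were Il4, Il4ra, Il2rg and Il13, the last of which was tested only through its EV-treated libraries and so is no support for the count, which was 3 in those 5 fits. Il13ra1, Il2ra and Il21r did not pass. With Il13 included, the median log2 fold change of the 8 genes was 0.76, beside -0.01 over all tested genes. The normalized counts of sham and EV cultures did not overlap for 6 of the 8, beside 49.6% of all tested genes. Il13 is among these 6 and is no support for this count either. In these bulk libraries a change in the share of a cell type cannot be told apart from a change in RNA per cell.

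**Figure D1:**
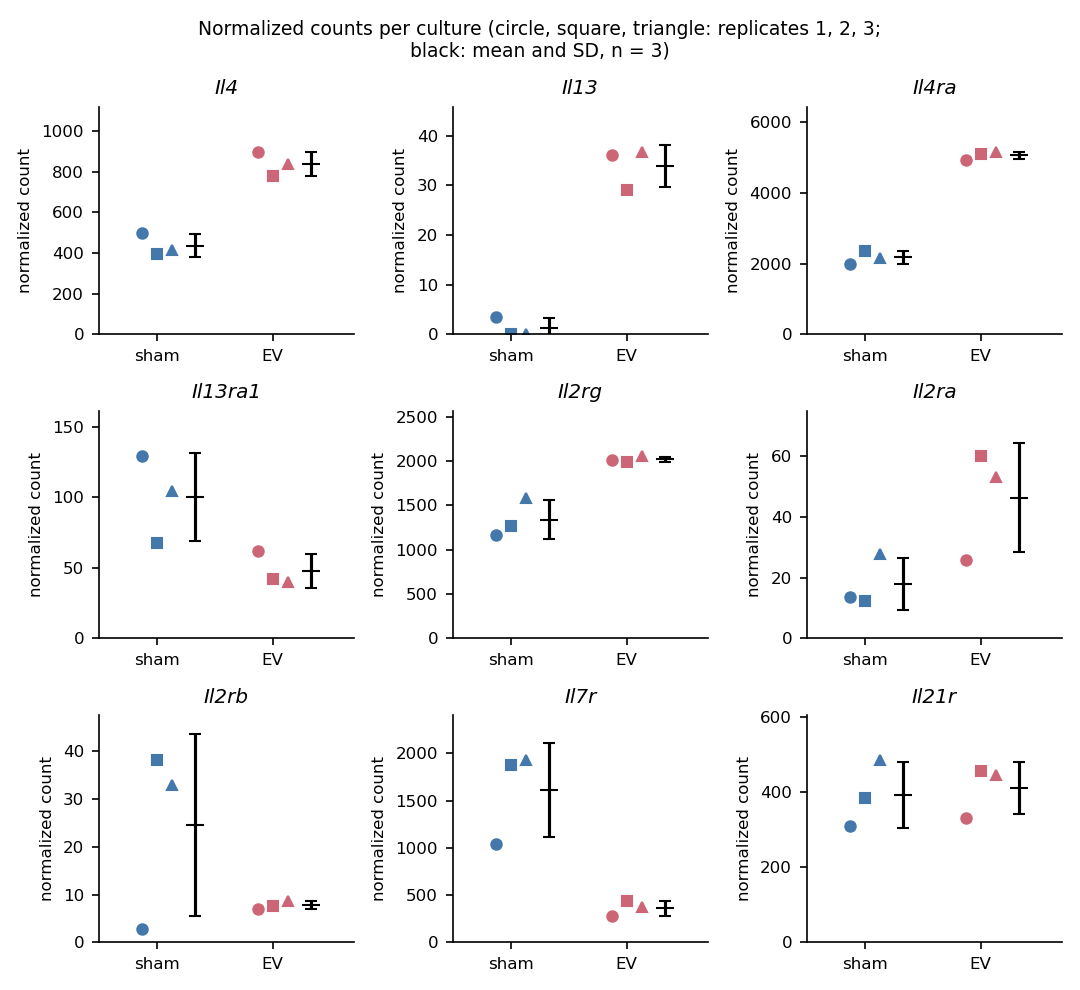
Normalized count (vertical axis, from 0) of each of the 9 genes in the 3 sham-treated (blue) and 3 EV-treated (red) cultures, with the group mean and SD in black. All EV-treated points lie above all sham-treated points for Il4, Il13, Il4ra and Il2rg and below them for Il13ra1 and Il7r, and the groups overlap for Il2ra, Il2rb and Il21r.

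Il4 (ENSMUSG00000000869.12, chr11:53602982-53618669, minus strand, GENCODE annotation of build GRCm38), the signature cytokine of type 2 immunity, had normalized counts of 500.1, 394.6 and 416.8 in sham replicates 1 to 3 and 895.1, 777.4 and 839.9 in EV replicates 1 to 3. Every EV-treated culture lay above every sham-treated culture, and the highest sham value was in replicate 1. The mean went from 437.2 ± 55.6 to 837.5 ± 58.9 (SD, n = 3 each), a log2 fold change of 0.93 (SE 0.122, edgeR adjusted p = 2.13e-04). Without sham replicate 1 it was 1.05.

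Il13 (ENSMUSG00000020383.1, chr11:53631324-53634702, minus strand) encodes the cytokine that drives mucus production and airway hyperresponsiveness, and it was scarce. The estimated counts were 4, 0 and 0 in the sham-treated and 36, 34 and 42 in the EV-treated cultures. Only 1 sham library held any count, and the EV-treated cultures were close to each other. Per library the EV counts were 23.2 times the sham counts, with a 95% interval of 8.82 to 86.7 that covers counting error only, and the gene passed the low-count filter through its EV-treated libraries alone. The fitted log2 fold change was 4.50 (SE 0.995, edgeR adjusted p = 0.00559). That call was lost when any 1 of 5 of the 6 libraries was left out, with adjusted p up to 0.0248, and was kept only without sham replicate 1. The other sham libraries had no count, and against a floor of 3 counts per library the EV-treated cultures were then at least 9.26-fold higher.

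Il4 and Il13 lie 12.7 kb apart in the type 2 cytokine locus, and the genes beside them did not pass the test. Kif3a, 1.01 kb from Il4, had a log2 fold change of -0.50 (edgeR adjusted p = 0.035), and Rad50, 14.8 kb from Il13, had one of -0.02 (edgeR adjusted p = 0.925). Rad50 was at a mean normalized count of 1026 ± 180.2 in the sham-treated and 1013 ± 11.2 in the EV-treated cultures (SD, n = 3 each). Il5, the other cytokine gene of this locus, was not analysed here.

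Markers of basophils and mast cells, which also make IL-4 and IL-13, moved in the same direction as both cytokines. Of 11 markers 8 were in the table and 7 were tested. Of these 7, 5 were higher after EV treatment, whereas 12.1% of all tested genes were higher and 11.6% were lower. None of the markers was lower in edgeR or DESeq2, nor at an unadjusted p under 0.05 (0 of 7). Their summed normalized count was 5930, 4427 and 5380 in sham replicates 1 to 3 and 12106, 9956 and 10030 in EV replicates 1 to 3. Replicate 1 was thus the highest of its group in both, as it was for Il4. The same held for the summed eosinophil markers, at 1133606 in sham replicate 1 and 1424005 in EV replicate 1. Of the 11 eosinophil markers 7 were higher and 0 were lower, so neither trait is particular to basophil and mast cell markers. Ms4a2, the beta chain of the high-affinity IgE receptor, rose by 2.64 on the log2 scale, the basophil protease gene Mcpt8 by 2.46 and the mast cell carboxypeptidase gene Cpa3 by 1.30 (edgeR adjusted p = 1.24e-04, 0.0018 and 3.33e-05). Without sham replicate 1 the values were 3.22, 3.20 and 1.38. Kit, the stem cell factor receptor of mast cells, did not pass (-0.23, edgeR adjusted p = 0.355), and Fcer1a, the alpha chain of the same IgE receptor, had a log2 fold change of 1.55 (edgeR adjusted p = 0.0106), which passed without sham replicate 1 (1.85, edgeR adjusted p = 0.00729). Tpsb2, a mast cell tryptase gene, was at 0 in every sham library and between 1.71 and 3 normalized counts in the EV libraries, and Tpsab1, Cma1 and Mcpt4 were not analysed here. The part of these cells in the Il4 and Il13 values was not tested.

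**Figure D2:**
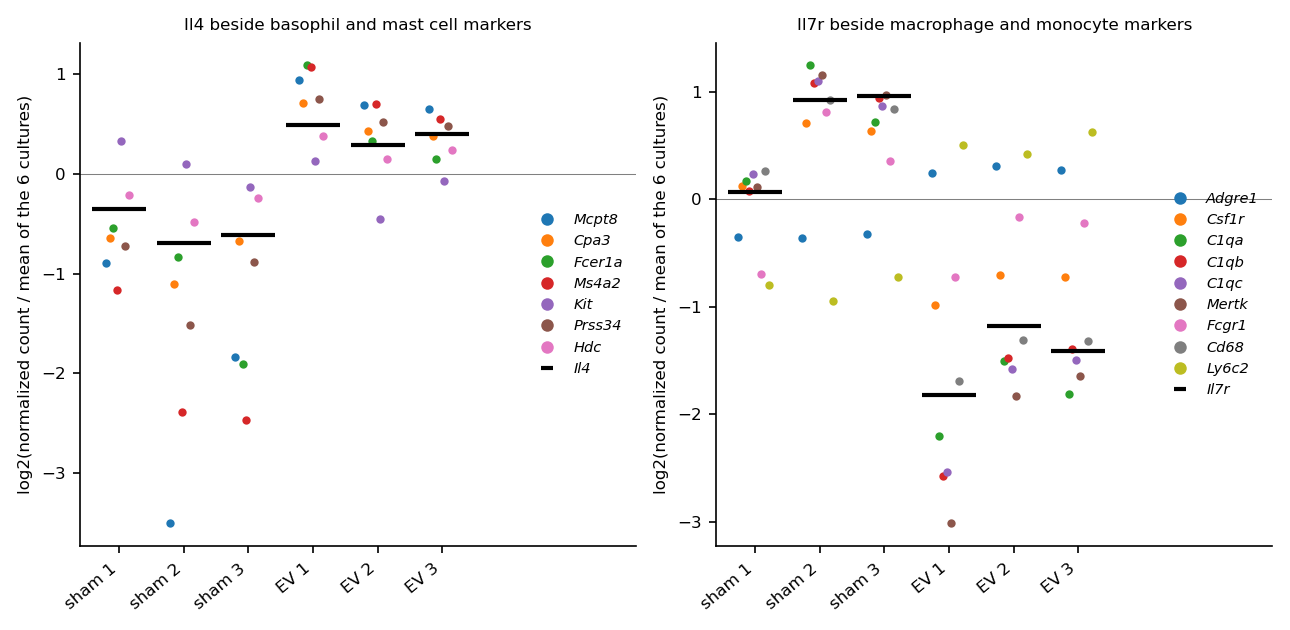
Log2 of each culture's normalized count over the mean of the 6 cultures (vertical axis), for Il4 (black bars) with the 7 tested basophil and mast cell markers, left, and for Il7r (black bars) with 9 macrophage and monocyte markers, right; the horizontal axis names the culture. Il4 and all the markers on the left except Kit were above 0 in the 3 EV-treated cultures and below 0 in the 3 sham-treated ones, and on the right Il7r lay with the C1q genes, Mertk and Cd68, well away from Adgre1 and Ly6c2.

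No tested T cell marker was higher after EV treatment. Of 15 markers 12 were in the table and 4 were tested. Of these 4, 0 were higher in edgeR, in DESeq2 or at an unadjusted p under 0.05, and 1 was lower. Over all tested genes 12.1% were higher and 11.6% were lower, and 4 genes are too few to set against these shares. The summed normalized count of the 12 was 405.5 to 987.8 in the sham-treated and 136.9 to 179.1 in the EV-treated cultures. The T cell antigen receptor gene Trac averaged 8.12 ± 7.91 normalized counts in the sham-treated and 2.53 ± 2.18 in the EV-treated cultures, and the coreceptor gene Cd4 averaged 16.3 ± 17.2 and 0.576 ± 0.499 (SD, n = 3 each). Cd3d, a chain of the receptor's signaling complex, was at 38.3 ± 30 and 48.4 ± 19.2 (SD, n = 3 each, edgeR adjusted p = 0.714). Cd3e, Trbc1 and Trbc2 were not analysed here.

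Il4ra (ENSMUSG00000030748.9, chr7:125552120-125579474, plus strand), the chain that binds IL-4 and is shared by both IL-4 receptors, had normalized counts of 1989, 2363 and 2168 in the sham-treated and 4940, 5099 and 5140 in the EV-treated cultures. The groups were far apart, and the EV-treated cultures varied little among themselves, with a coefficient of variation of 2.09% beside 8.61% in the sham-treated ones. The mean went from 2173 ± 187.2 to 5060 ± 105.7 (SD, n = 3 each), a log2 fold change of 1.22 (SE 0.0738, edgeR adjusted p = 1.33e-06). Averaged over the 6 cultures, its normalized count, not divided by exon length, was above that of 86% of the tested genes. Il4ra was also the only 1 of the 9 genes called higher under a stricter rule, which also asked for a log2 fold change of 1 or more in size and a mean over 100 normalized counts, and which 2.7% of the tested genes met upward and 4.76% downward. Il7r was the only 1 called lower under it.

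Il2rg (ENSMUSG00000031304.18, chrX:101264378-101268255, minus strand), the common gamma chain, had normalized counts of 1165, 1265 and 1582 in the sham-treated and 2010, 1992 and 2051 in the EV-treated cultures. The lowest EV-treated culture lay above the highest sham-treated culture, and the EV-treated cultures were again tightly grouped, with a coefficient of variation of 1.49% beside 16.3%. The mean went from 1337 ± 217.7 to 2018 ± 30 (SD, n = 3 each), a log2 fold change of 0.59 (SE 0.106, edgeR adjusted p = 0.00156). The strandedness of the libraries is not given in the sources used here, and both receptor genes overlap others: Il4ra shares 571 exon bases with the antisense gene Gm44876 and Il2rg shares 728 with the same-strand gene Gm20489, neither of which has a row of its own.

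Il13ra1 (ENSMUSG00000017057.9, chrX:36112110-36171259, plus strand), the chain that joins Il4ra in the type II receptor, had a different pattern. Its normalized counts were 128.8, 67.4 and 104.5 in the sham-treated and 61.9, 42 and 40 in the EV-treated cultures. The EV-treated values were all below the sham-treated ones, by a narrow gap. The mean was 100.2 ± 30.9 and 48 ± 12.1 (SD, n = 3 each), a log2 fold change of -1.07 with a 95% interval of -1.88 to -0.25, which did not pass (edgeR adjusted p = 0.0444).

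The balance between the receptor chains was compared within each culture. Per kilobase of exon, Il4ra was at 0.679, 0.743 and 0.545 times the Il2rg level in the sham-treated cultures and at 0.977, 1.02 and 0.997 times in the EV-treated ones. The size of this ratio depends on the exon lengths, which join all annotated transcripts, and on the overlaps named above, so only its difference between treatments is read here. On the log2 scale of counts the ratio differed by 0.62 between the group means, or 1.53-fold, with no overlap between groups. Il2rg was at 14.1, 29.2 and 23.5 times the Il13ra1 level per kilobase in the sham-treated and 50.5, 73.8 and 79.6 times in the EV-treated cultures, a difference of 1.64 on the log2 scale of counts, again with no overlap. For both ratios the exact two-sided permutation test gave p = 0.1, the smallest value that 3 cultures against 3 allow.

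Il7r (ENSMUSG00000003882.5, chr15:9505788-9530176, minus strand), the IL-7 receptor alpha chain, had normalized counts of 1037, 1875 and 1923 in the sham-treated and 278.7, 434.6 and 371.7 in the EV-treated cultures. Replicate 1 was the lowest of its group in both, and the lowest sham-treated culture was still far above the highest EV-treated one. The mean went from 1612 ± 498.4 to 361.6 ± 78.4 (SD, n = 3 each), a log2 fold change of -2.15 (SE 0.238, edgeR adjusted p = 6.96e-05). Without sham replicate 1 it was -2.38.

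Several macrophage genes followed the same pattern over the 6 cultures as Il7r. Of the 10 macrophage and monocyte markers, all tested, 7 were lower and 2 were higher after EV treatment. Over all tested genes 11.6% were lower and 12.1% were higher. The complement gene C1qa, for example, had normalized counts of 466.7, 982.9 and 684.1 in the sham-treated and 89.9, 146.6 and 118.4 in the EV-treated cultures. The lowest value of each group was in replicate 1, as it also was for Il21r, Mrc1 and Ighm, none of which was called lower. That order within the groups is thus not particular to Il7r and macrophage genes. The efferocytosis receptor gene Mertk fell by 2.85 on the log2 scale, whereas Adgre1, which encodes F4/80 and is expressed by mouse eosinophils too, rose by 0.62 (edgeR adjusted p = 1.23e-04 and 6.36e-06). The summed normalized count of the list, most of it from Adgre1, Ly6c2 and Csf1r, was 55446 to 70308 in the sham-treated and 66957 to 72715 in the EV-treated cultures. Cd28, the costimulatory receptor of T cells, made up most of the T cell list in the sham-treated cultures and fell from 559.4 ± 232.1 to 42.4 ± 13.7 (SD, n = 3 each, edgeR adjusted p = 3.69e-05). Without sham replicate 1 the log2 fold changes were -2.81 for C1qa, -3.10 for Mertk, 0.62 for Adgre1 and -4.01 for Cd28. The part of macrophages or T cells in the Il7r values was not tested.

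Il21r (ENSMUSG00000030745.9, chr7:125603429-125633570, plus strand), the IL-21 receptor chain, lies 24 kb from Il4ra and did not pass the test. Its normalized counts were 309.1, 384.8 and 483.6 in the sham-treated and 329.7, 455.1 and 445.6 in the EV-treated cultures. The groups overlapped almost wholly. The log2 fold change was 0.07, with a 95% interval of -0.36 to 0.50 (edgeR adjusted p = 0.82), and its sign changed with scaling by library totals alone and without sham replicate 1 or EV replicate 2. Nsmce1, on the other side of Il4ra at 60.5 kb, had a log2 fold change of 0.51 (edgeR adjusted p = 0.0155). Beside Il2rg, Med12 at 5.77 kb had one of -0.09 (edgeR adjusted p = 0.247) and Gm614 at 0.385 kb, a gene of few counts, had one of 2.24 (edgeR adjusted p = 0.158). Spef2, 48 kb from Il7r, had one of 0.72 (edgeR adjusted p = 0.52). None of these tested neighbours passed, and Capsl, on the other side of Il7r, was not analysed here.

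The IL-2 receptor alpha and beta chains were near the lower end of detection. Il2ra (ENSMUSG00000026770.5, chr2:11642807-11693193, plus strand), which gives the IL-2 receptor its high affinity, had normalized counts of 13.5, 12.3 and 27.9 in the sham-treated and 26, 60 and 53.1 in the EV-treated cultures. EV replicate 1 lay below sham replicate 3, so the groups overlapped. The log2 fold change was 1.37 with a 95% interval of 0.07 to 2.68, and it did not pass (edgeR adjusted p = 0.0968).

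Il2rb (ENSMUSG00000068227.9, chr15:78479256-78495271, minus strand), the beta chain shared by the IL-2 and IL-15 receptors, did not pass the low-count filter. Its normalized counts were 2.7, 38 and 32.8 in the sham-treated and 6.99, 7.71 and 8.7 in the EV-treated cultures. Sham replicates 2 and 3 were high, whereas sham replicate 1 was below every EV-treated culture. The log2 ratio of the group means was -1.65, and a fit without the filter gave -1.61 (SE 0.989, edgeR adjusted p = 0.262).

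Set side by side per kilobase of annotated exon, the levels of the 9 genes spanned a wide range. Close places in this order, such as those of Il4ra and Il2rg, depend on the exon lengths and overlaps named above. In the sham-treated cultures Il2rg was the highest at 560.2 ± 91.2 normalized counts per kilobase, followed by Il4ra at 362.1 ± 31.2, Il4 at 356.3 ± 45.3 and Il7r at 345.7 ± 106.9 (SD, n = 3 each). The last 3 of these overlapped as neighbours in the order and did not differ beyond their spread. Il21r at 118.1 ± 26.3 and Il13ra1 at 27 ± 8.34 came next, and Il2rb, Il2ra and Il13, which overlapped, were between 5.72 and 0.997. In the EV-treated cultures Il2rg at 845.2 ± 12.6 and Il4ra at 843 ± 17.6 shared the top of the order, and Il4 followed at 682.6 ± 48. Il7r, at 77.6 ± 16.8, had passed below Il21r at 123.4 ± 21. Il13 at 28.1 ± 3.42 had moved from the lowest place to above Il13ra1 at 12.9 ± 3.26, with Il2ra at 8.12 ± 3.15 and Il2rb at 1.82 ± 0.2 the lowest (SD, n = 3 each).

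**Figure D3:**
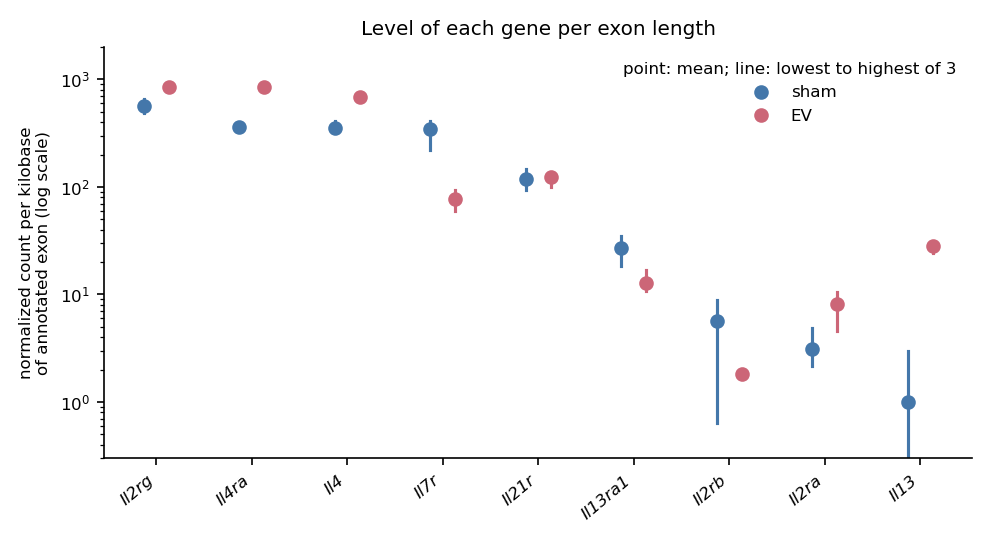
Level of each gene in normalized counts per kilobase of annotated exon (vertical axis, log scale) for sham-treated (blue) and EV-treated (red) cultures, with points at the mean of 3 and lines from the lowest to the highest culture; the sham line of Il13 starts at 0 and is cut at the axis. Il4ra and Il2rg were at 843 and 845.2 in the EV-treated cultures, Il7r passed below Il21r, and Il13 passed above Il13ra1.

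The genes whose values followed Il4ra most closely over the 6 cultures included Sec24c and Il10ra, with Pearson correlations of log2 CPM of 0.9991 and 0.9990 among 10453 genes. For Il2rg they were Gosr2, Otub1 and Dbi, at 0.9986, 0.9973 and 0.9970. These 6 cultures fall into 2 treatments, so such values mainly describe the shared difference between treatments. Il10ra, which encodes the IL-10 receptor chain that binds the cytokine, had a log2 fold change of 2.35.

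Few of the related cytokine and receptor genes examined, not all of them members of the family, could be tested in these libraries. Of 12 such genes 5 were in the table and 3 were tested, of which 1 was higher, 1 was lower and 1 did not pass. Over all tested genes 12.1% were higher and 11.6% were lower, and 3 genes are too few to set against these shares. The median log2 fold change of the 3 was 0.40, beside -0.01 over all tested genes. Crlf2, the TSLP receptor chain that pairs with Il7r, had normalized counts of 3355, 3711 and 3052 in the sham-treated and 4282, 4432 and 4673 in the EV-treated cultures. The groups did not overlap, and the log2 fold change was 0.40 (SE 0.0791, edgeR adjusted p = 0.00284), in the opposite direction to Il7r. That call was lost without EV replicate 2 or 3 (edgeR adjusted p = 0.0127 and 0.0177) and with library totals alone as the scaling (0.25, edgeR adjusted p = 0.0285).

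Il15, the cytokine that signals through Il2rb and Il2rg, had normalized counts of 273.9, 158.1 and 283.1 in the sham-treated and 87.9, 55.7 and 92.3 in the EV-treated cultures. All EV-treated values were below all sham-treated ones. It fell by 1.60 on the log2 scale (SE 0.293, edgeR adjusted p = 0.00186), a call that was lost without sham replicate 3 (edgeR adjusted p = 0.0109). Il15ra, which presents IL-15, had a log2 fold change of 0.71 (edgeR adjusted p = 0.159). Il7 and Il9r had at most 10.9 normalized counts in any library and were not tested. Il2, Il9, Il21, Il31, Tslp, Il5 and the IL-13 decoy receptor gene Il13ra2 were not analysed here.

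Of 19 genes that act next to these receptors, all were tested, 10 were higher, none was lower and 9 did not pass. Over all tested genes 12.1% were higher and 11.6% were lower. The median log2 fold change of the 19 was 0.33, beside -0.01 over all tested genes. DESeq2 also called 0 of the 19 lower, and 1 (Irs1) was lower at an unadjusted p under 0.05. The transcription factor and kinases that serve IL-4 signaling most directly did not pass. Stat6 was at 10240 ± 342.8 in the sham-treated and 9703 ± 229.3 in the EV-treated cultures (SD, n = 3 each), with a log2 fold change of -0.08 (edgeR adjusted p = 0.3), although it was called lower when library totals alone were used for scaling (-0.23, edgeR adjusted p = 0.00536). Jak1, the kinase bound to Il4ra, had a log2 fold change of 0.03 and Jak3, the kinase bound to the gamma chain, one of 0.27 (edgeR adjusted p = 0.708 and 0.0844). Stat5a and Stat5b, the STATs of IL-2, IL-7 and IL-5 signaling, had log2 fold changes of 0.08 and -0.10 and did not pass either.

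The feedback inhibitors of cytokine receptors were among the genes that rose. Socs1, an inhibitor of JAK kinases, had normalized counts of 123.4, 174 and 82.6 in the sham-treated and 4002, 4345 and 4661 in the EV-treated cultures. The groups were wide apart, and the log2 fold change was 5.10 (SE 0.189, edgeR adjusted p = 5.75e-08). Cish, a target and inhibitor of STAT5 signaling, rose by 4.37 and Socs3, the inhibitor of IL-6 family and G-CSF signaling, by 3.77 (edgeR adjusted p = 3.64e-10 and 1.03e-08). Jak2, the kinase of the receptors for IL-3, IL-5 and GM-CSF, rose by 1.41, from 5368 ± 160.3 to 14278 ± 250.3 (SD, n = 3 each, edgeR adjusted p = 6.44e-08). Irs2, an adaptor phosphorylated after IL-4 binding, rose by 0.80 (edgeR adjusted p = 7.46e-06). Stat3, Grb2, Pik3r1 and Ptpn6 were also higher. With library totals alone as the scaling 7 of the 19 were higher, and Stat3, Grb2 and Pik3r1 lost their calls (edgeR adjusted p = 0.0577, 0.0193 and 0.0271). Stat3 lost its call also without sham replicate 2 or EV replicate 2 or 3, and Pik3r1 without EV replicate 2.

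Known response genes of IL-4 and IL-13 in macrophages and other cells were mixed in direction. Of 23, 21 were in the table and 19 were tested, of which 7 were higher, 3 were lower and 9 did not pass. Over all tested genes 12.1% were higher and 11.6% were lower. The median log2 fold change was 0.73, beside -0.01 over all tested genes. Arg1, Retnla, Ccl24, Mgl2 and Clec10a had few or no counts in 1 or more sham libraries and were tested only through their EV-treated libraries. They are thus no support for the count of higher genes or for the median. Values of some of the 23 genes were known when the list was written, so the list is not independent evidence of its direction. Ccl24, the gene for eotaxin-2, had no count in any sham library and normalized counts of 130.9, 205.7 and 143.6 in the EV-treated cultures, at least 47.9-fold higher against a floor of 3 counts per library. Retnla, which encodes a resistin-like protein of type 2 responses, went from 18.5 ± 12.4 to 4494 ± 670.5 and the arginase gene Arg1 from 11.8 ± 11 to 1304 ± 219.3 (SD, n = 3 each), log2 fold changes of 7.81 and 6.91 (edgeR adjusted p = 2.87e-08 and 2.61e-06). With so few sham counts these sizes are loose, and over the 12 alternatives they ranged from 7.50 to 8.59 for Retnla and from 6.20 to 8.22 for Arg1.

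Mgl2, a lectin gene of alternatively activated macrophages and dendritic cells, had 1 count over the sham libraries and 175 over the EV libraries, a ratio of 145 per library with a 95% counting interval of 25.7 to 5761. Irf4, a transcription factor gene induced by IL-4, rose by 2.26 on the log2 scale, whereas Bcl6, a repressor of type 2 genes, fell by 2.64, from 1559 ± 108 to 250.6 ± 22.3 (SD, n = 3 each, edgeR adjusted p = 4.73e-04 and 9.31e-08). Alox15 and Egr2 were also higher. Ccl17 and Cd36, usually induced by IL-4 in macrophages, were lower, and the macrophage lectin receptor gene Mrc1 did not pass (0.34, edgeR adjusted p = 0.332), although it was called higher with the replicate block (0.36, edgeR adjusted p = 0.00663).

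**Figure D4:**
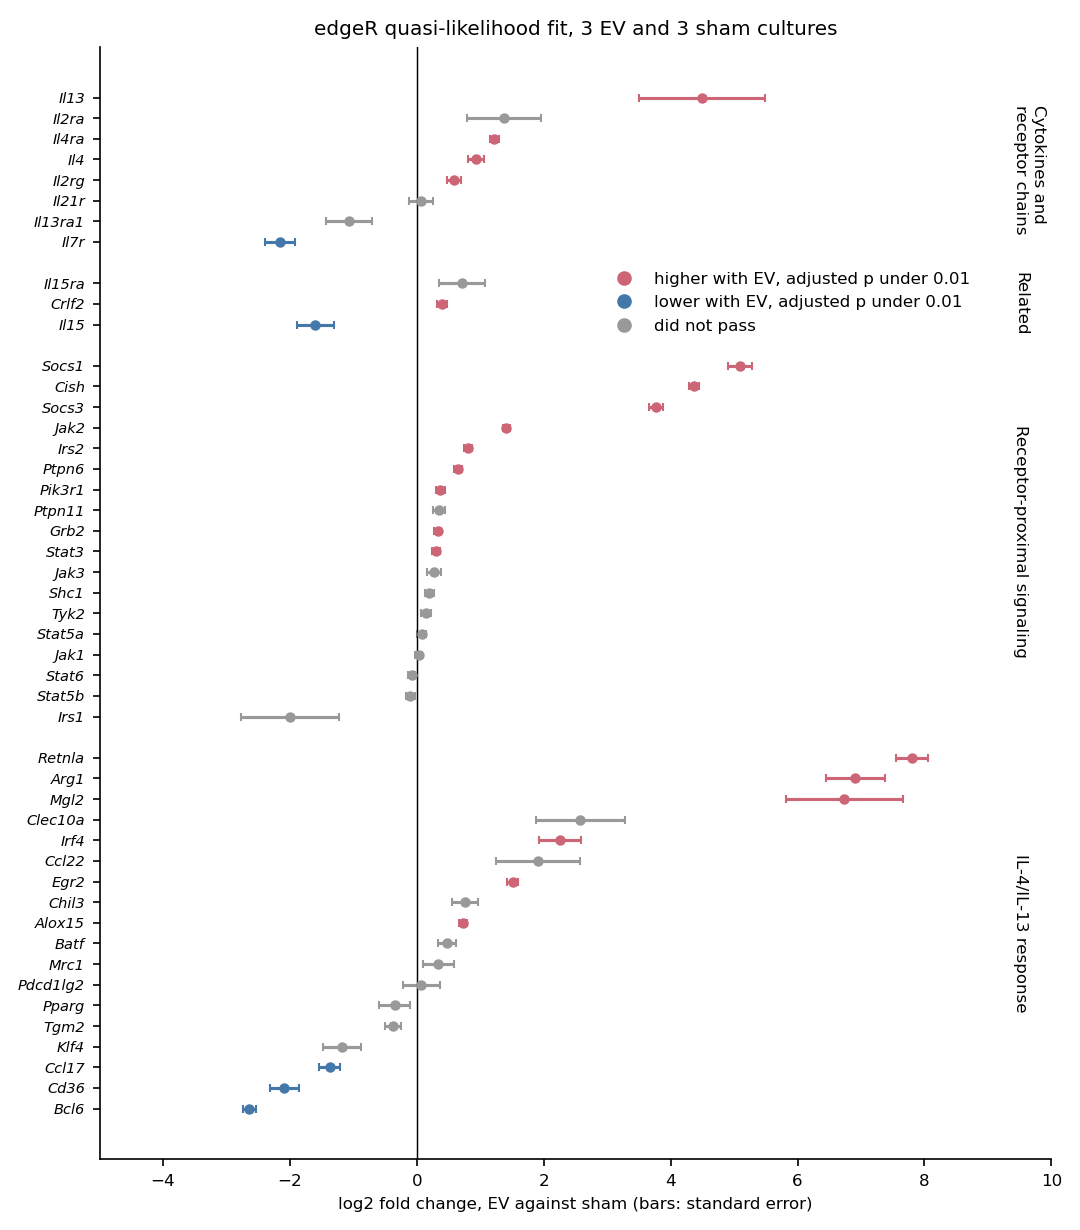
Log2 fold change of EV-treated against sham-treated cultures (horizontal axis, edgeR, bars show the standard error) for tested genes of each group, coloured by whether they passed an adjusted p under 0.01; Ccl24, with no sham count, is left out. Socs1, Cish and Socs3 lie between 3.77 and 5.10, Stat6, Jak1, Stat5a and Stat5b lie near 0, and Il7r at -2.15 and Il15 at -1.60 lie on the opposite side from Il4ra, Il4 and Il2rg.

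Il4, Il4ra, Il2rg and Il7r passed the same threshold in the same direction under all 12 alternatives of scaling, filtering, tool, model or left-out culture. Their log2 fold changes ranged from 0.79 to 1.05 for Il4, 1.07 to 1.28 for Il4ra, 0.45 to 0.74 for Il2rg and -2.38 to -2.00 for Il7r. Il13ra1, between -1.29 and -0.84, and Il2ra, between 1.14 and 1.84, kept their direction and passed under none.

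**Figure D5:**
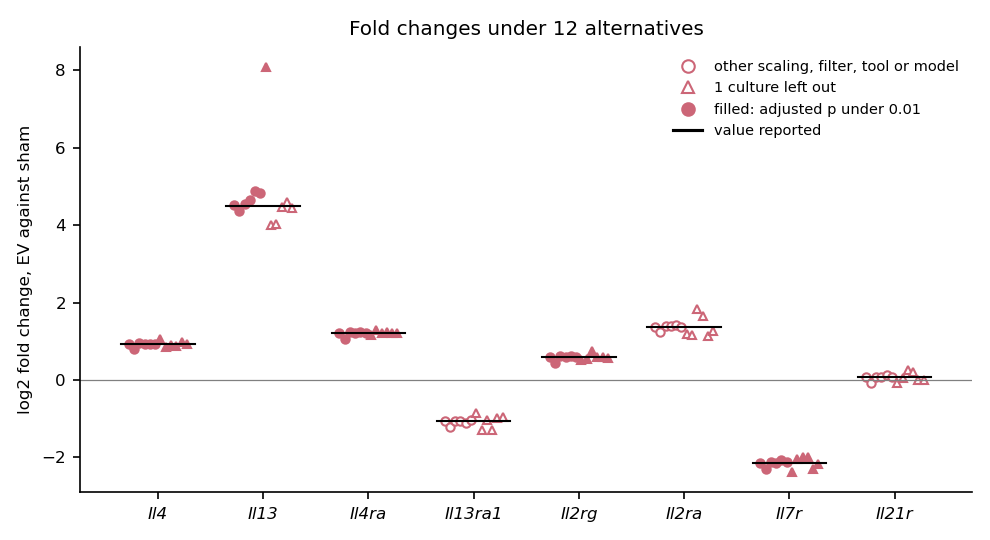
Log2 fold change of the 8 tested genes (vertical axis) under 12 alternatives, with circles for another scaling, filter, tool or model, triangles for 1 culture left out, filled symbols for an adjusted p under 0.01 and black lines for the values reported. The filled symbols of Il4, Il4ra, Il2rg and Il7r stay close to their lines, Il13 ranges from 4.01 to 8.08 with 5 open triangles, and Il21r crosses 0.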

How the data were processed

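Polyadenylated RNA from 6 eosinophil cultures was sequenced in the study. The authors checked reads with FastQC, trimmed them with Cutadapt and quantified them with Salmon, and the labels name build mm10. Versions, annotation and strandedness are not given in the sources used here. The authors deposited estimated counts per gene, of which 59.81% of values were whole. The authors' normalized counts and their DESeq2 comparison (fold changes and p-values) were not used.

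Estimated counts, rounded, were analysed with edgeR 4.0.16 in R 4.3.3 (TMM scaling, filterByExpr, quasi-likelihood test, Benjamini-Hochberg adjustment over 13498 genes, threshold 0.01). Groups came from the sample titles. Normalized counts are counts over effective library sizes at a common scale. Standard errors and t-based 95% intervals come from the F statistic, and counting intervals are exact. DESeq2 1.42.0, limma 3.58.1 voom, RLE scaling, library totals alone, no filter, a replicate block, other thresholds and leaving out each culture were alternatives. Ratios used log2 of counts plus 0.5. The test was checked on simulated data in which only genes of higher count changed. That check does not cover genes of few counts, such as Il13. No replicate pair agreed within sampling noise (chi-square per gene 8.37 to 31.8).

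Gene positions are from GENCODE on GRCm38 and promoter windows from RefSeq on GRCm38.p6. The 9 genes and the lists were chosen with earlier results of these data known. The rule named all 9 genes, up to 6 genes with the largest changes from each list, 3 genes most like Il4ra and Il2rg, and the nearest protein-coding neighbours of called genes. Other genes were named after their values were seen, and a few genes the rule would name are not reported here.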

Additional observations from a re-analysis of the deposited data

How the results depend on the processing

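Over 19 results and 230 values under alternatives, 207 kept their direction and side of the threshold, or for counts and ratios stayed close. The log2 fold change of Il13 was 4.01 to 8.08 with 1 culture left out and lost its call in 5 of those 6 fits, where fewer samples entered. Il21r changed sign at -0.08 with library totals alone, -0.08 without sham replicate 1 and -0.01 without EV replicate 2. Leaving out 1 culture gave -0.08 to 0.25 for Il21r. The stricter rule left 1 of the 8 tested genes higher, 0 related genes, 5 receptor-proximal genes and 3 IL-4/IL-13 response genes, beside 2.7% of all tested genes. An adjusted p under 0.05 gave 2 of the 8 tested genes lower (Il7r and Il13ra1), 11 response genes higher and 5 lower. The share of all tested genes at 0.05 is not given here, so these counts are not read further. The 3 and the 11 response genes include some tested only through their EV-treated libraries, which are no support for either count.

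Scaling by library totals alone shifted the log2 differences by -0.149. It left 0 related genes higher and made 1 receptor-proximal gene (Stat6, -0.23, edgeR adjusted p = 0.00536) and 5 response genes lower, with 7 receptor-proximal genes higher instead of 10. DESeq2 also called 5 response genes lower, and the cause was not tested. With 1 culture left out, related genes higher were 0 to 1 and lower 0 to 1, and receptor-proximal genes lower were 0 to 1, the 1 being Irs1 without EV replicate 1 (-3.59, edgeR adjusted p = 0.00313).

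Cultures with the same replicate number had deviations that correlated at 0.117, 0.0846 and 0.0371 for replicates 1 to 3. Only replicate 1 was over the threshold of 0.1, so the numbers were not taken to pair the cultures. A pairing is not excluded, as 5 of 6 cultures correlated best with their own number. The replicate block changed no call among the 8 tested genes (Il7r -2.13, Il4 0.94, Il4ra 1.22, Il2rg 0.60, Il13 4.84), but called Mrc1, Chil3 and Ptpn11 higher and Tgm2 lower. Depth limits Il13, Il2ra and Il2rb, whose counts were low.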

Other observations

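Markers of 3 other cell types were counted as well, where 12.1% of all tested genes were higher and 11.6% were lower. Of 9 tested neutrophil markers 5 were lower and 1 was higher after EV treatment, with a summed normalized count of 21427 to 24910 in the sham-treated and 16903 to 20820 in the EV-treated cultures. Of 4 tested markers of NK cells and innate lymphoid cells 2 were higher and 1 was lower. The sums were 3359 to 3539 in the sham-treated and 13018 to 14482 in the EV-treated cultures. Most of each sum was Il1rl1, the IL-33 receptor gene, at a mean of 3071 in the sham-treated and 13388 in the EV-treated cultures. Which cells held the Il1rl1 RNA was not tested. Ncr1 and Klrb1c were not analysed here, and Eomes had at most 1.74 normalized counts in any library. Of 4 tested B cell markers 1 was higher, with sums of 2028 to 2759 and 3209 to 3910, most of it from Ighm.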
